A study of Mus musculus with 16 samples.

Results

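The interleukins, their receptors and their antagonists and binding proteins were followed in muscle of mice with myositis induced by histidyl–transfer RNA synthetase (HRS, the Jo-1 antigen). The group was taken as the rows of the normalized count table whose gene symbol begins with Il and a digit and whose mean over the 16 libraries is at least 0.1, which left 57 of 68 matching rows, out of 26382 genes in the table. Of the 57 genes, 18 encode ligands, 35 receptors or receptor subunits, 3 antagonists or decoys (Il1rn, Il18bp and Il1r2), and 1, Il4i1, an amino acid oxidase that shares the name only. The rule used each gene's level over all libraries, HRS and PBS together, and so it favours genes that are high in either. In 11 of the 57 genes the mean over the 9 PBS libraries was below 0.1, so that they entered through the HRS libraries; the counts of changed genes below describe the group and are no test of it.

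The animals were female C57BL/6 mice, 8 to 10 weeks old, injected in the hamstrings with 100 µL in all (50 µL on each side), and muscle was taken on day 14. The 16 libraries come from 9 mice. The left legs of 5 mice (m862 to m866) were labelled as given recombinant murine HRS at 3 to 5 mg/mL and the right legs of the same mice as given phosphate-buffered saline (PBS), called here HRS legs and contralateral PBS legs. Both legs of 2 mice that received PBS alone (m867 and m868) gave 4 PBS-only libraries. A further 2 libraries, 1 from each of mice m860 and m861 with the leg not given, are from animals whose titles name an MBP fusion protein at 2 to 3 mg/mL (called here HRS-MBP), while their treatment label gives HRS at 3 to 5 mg/mL. The general protocol describes HRS in both hamstrings, whereas the sample titles assign a treatment to each leg; the titles were followed. The 2 legs of a mouse share that mouse, and PBS-only animals number 2, so that p-values against them rest on few animals.

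Interleukins signal through multi-subunit receptors. The receptors for IL-2, IL-4, IL-7, IL-9, IL-15 and IL-21 share the common gamma chain, encoded by Il2rg, and those of the IL-6 group share gp130, encoded by Il6st. IL-1, IL-18, IL-33 and IL-36 bind receptors of the IL-1 receptor family and are held in check by a receptor antagonist, a decoy receptor and a binding protein. IL-12, IL-23 and IL-27 are made of 2 different chains, and their receptors are best known on T and NK cells. In skeletal muscle, IL-15 and IL-6 are also made by muscle fibres.

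The step between the low values of each library implies 8595360 to 73939154 reads, with the right leg of m868 shallowest. Muscle fibre markers (Ckm, Acta1, Mb, Myh4 and Tnnt3) were abundant in each library, with summed normalized counts of 32528 to 138105 in HRS legs and 98239 to 158112 in contralateral PBS legs. The leukocyte gene Ptprc stood at 58.0 to 279 in HRS legs, 3.62 to 9.47 in contralateral PBS legs and 3.56 to 8.60 in PBS-only legs. Between HRS and contralateral PBS legs, the fixed markers of T cells (6 of 6), B and plasma cells (4 of 4), NK cells (3 of 3), macrophages (4 of 4) and neutrophils (4 of 4) were called higher, with 2 of 3 for dendritic cells, 1 of 3 for fibroblasts, 0 of 4 for mast cells and 0 of 2 each for eosinophils and endothelium. Muscle fibre markers were called in 0 of 5, and adipocyte markers were called lower in 2 of 2. Adipocyte markers summed to 41.5 to 735 in contralateral PBS legs (median 100), and against PBS-only mice 0 of 2 were called lower. T cell markers summed to 14.1 to 106 in HRS legs and 1.51 to 2.91 in contralateral PBS legs, macrophage markers to 303 to 1370 and 44.8 to 114, and neutrophil markers to 9.90 to 116 and 0.996 to 3.46. The HRS leg of m866 stood apart: it had the lowest Ptprc (58.0, against 108 to 279 in the other 4) and the highest muscle fibre sum (138105, against 32528 to 79500), and its mitochondrial share of counts was 11.1%, against 3.41 to 6.29%. That share was 9.69 to 11.2% in contralateral PBS legs, 11.3 to 13.1% in PBS-only legs and 5.94 to 6.98% in HRS-MBP libraries, and its part in the results was not tested. In bulk muscle, fewer cells of a type and less RNA per cell cannot be told apart, and the part that cell composition has in the values below was not tested.

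Between HRS and contralateral PBS legs, 30 of the 57 genes were called higher and 1 lower (limma across 20447 genes, Benjamini-Hochberg adjusted p below 0.05 and an absolute log2 fold change above 1 on the log2(normalized count + 0.5) scale). Over all genes tested, 14% were called higher and 5.03% lower, 19% in either direction. The median log2 fold change of the 57 genes was 1.11, against 0.07 over all genes tested. Of the 46 genes whose PBS mean reached the threshold on its own, 27 were called higher, as were 3 of the 11 that entered through the HRS libraries. In 30 of the 57 genes every HRS leg lay above every contralateral PBS leg, as in 16.2% of all genes tested, and 23 of the 30 genes called higher are among them. In 0 of the 57 did every HRS leg lie below, as in 3.02% of all genes tested. In 38 of the 57 genes the HRS leg exceeded the other leg in all 5 mice, as in 24.4% of all genes tested.

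**Figure D1:**
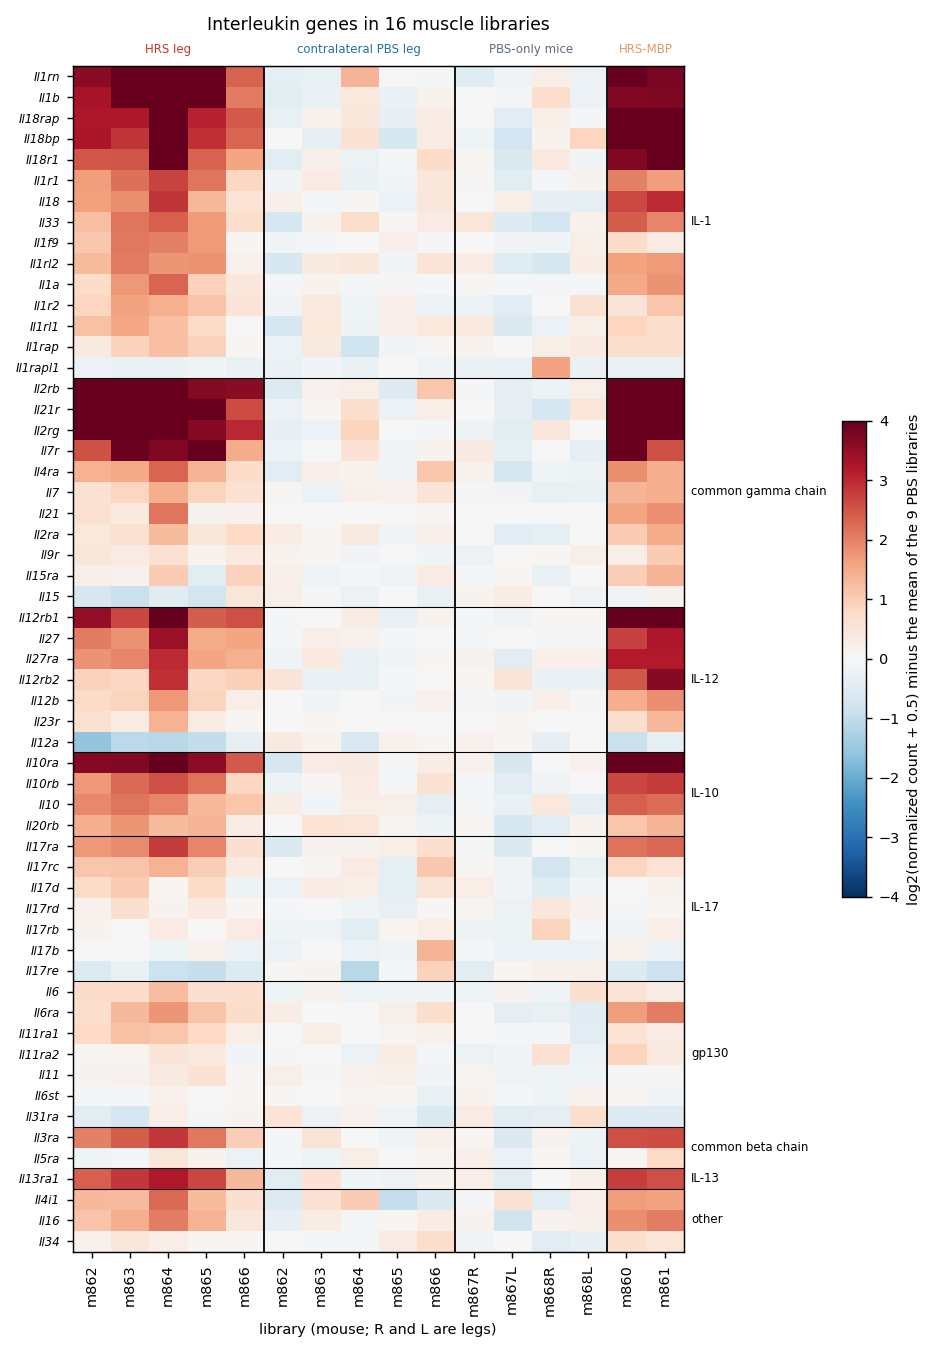
Each row is 1 of the 57 genes, grouped by cytokine family, and each column 1 of the 16 libraries; colour is log2(normalized count + 0.5) minus the mean of the 9 PBS libraries, saturating at 4 in both directions. The HRS and HRS-MBP libraries are red over most of the IL-1, common gamma chain, IL-12 and IL-10 rows, the HRS leg of m866 is the palest of the HRS legs in most red rows, and the gp130 and IL-17 rows are pale apart from Il17ra and Il6ra.

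The calls were uneven across families. In the IL-1 family 12 of 15 genes were called higher, in the IL-10 family 4 of 4, in the IL-12 family 4 of 7 with 1 lower, and in the common gamma chain family 5 of 11. In the IL-17 family 1 of 7 genes was called higher and in the gp130 family 0 of 7. Over all genes tested, 14% were called higher and 5.03% lower. Families of 7 genes are too small to tell such counts from that share. By role, 8 of 18 ligands, 18 of 35 receptors and 3 of 3 antagonists or decoys were called higher. Differences between families or roles were not tested.

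**Figure D2:**
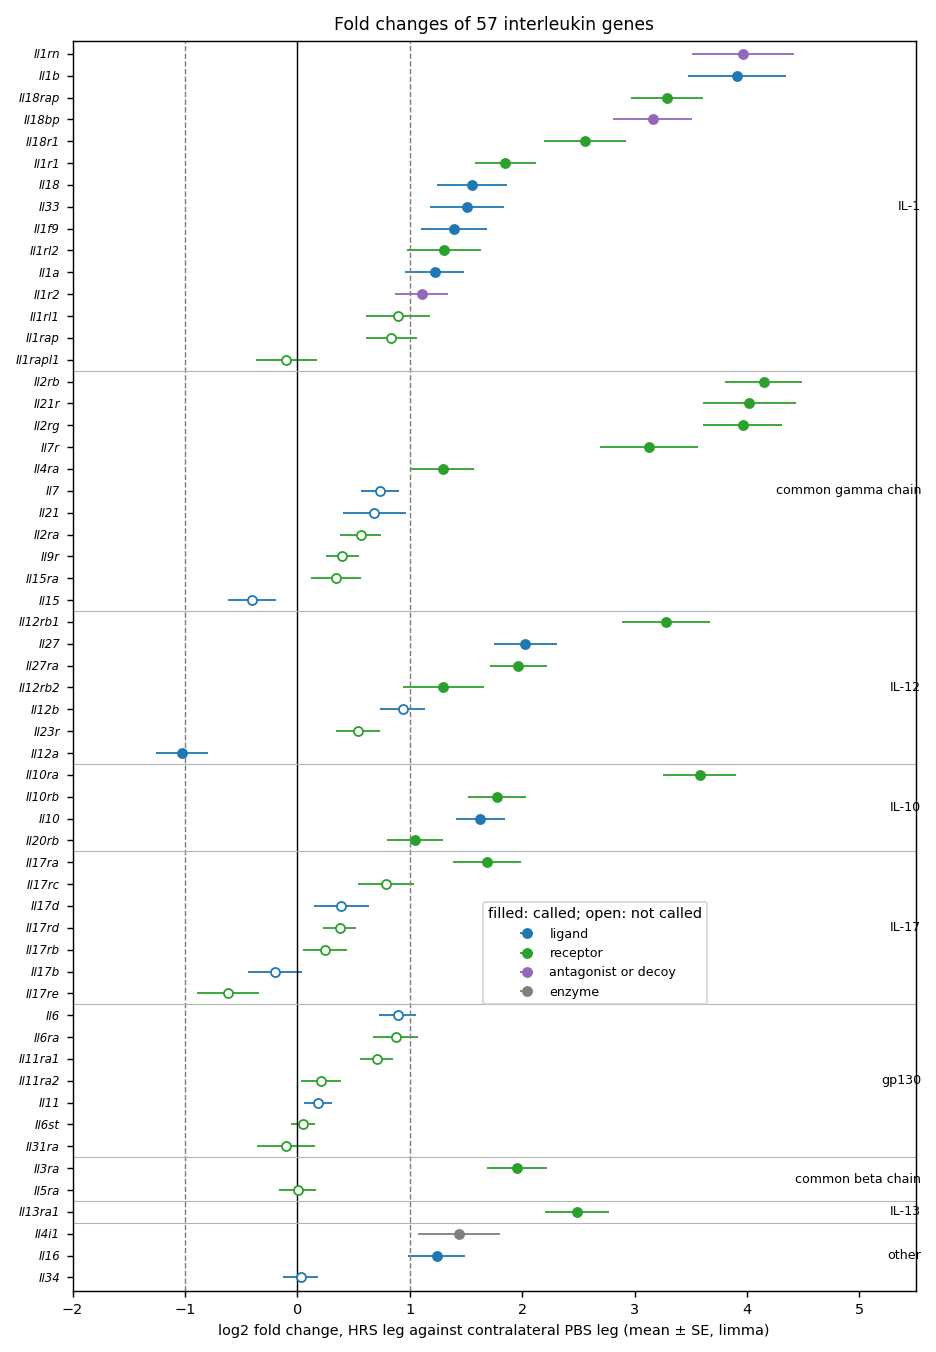
Log2 fold changes of the 57 genes between HRS and contralateral PBS legs (5 libraries each), with limma standard errors, grouped by family; colour gives the role, filled points were called and open points were not, and dashed lines mark a change of 1. Il2rb, Il21r, Il1rn, Il2rg and Il1b lie at 3.91 to 4.15, Il12a alone is filled on the left at -1.03, and no gp130 point is filled.

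The DNA before the transcription start was read from the RefSeq promoter table (build GRCm38.p6), which held 45 of the 57 genes. In the 250 bases upstream of the start, on both strands, 4 motifs were searched. TTCNNNGAA, the STAT binding pattern, was found in 6 of the 45 genes (Il12rb2, Il18r1, Il1f9, Il1r2, Il31ra and Il7r) and in 8.13% of all genes of the table. An interferon response pattern, GAAA, any 2 bases and GAAA, was found in 0 of 45 and in 3.46% of all genes. GAGGAAGT, the core of the myeloid factor PU.1, was found in 2 (Il18rap and Il4i1) and in 2.79% of all genes, and an NF-kappaB pattern, GGGA, any base and TTTCC, in 2 (Il16 and Il6) and in 0.414% of all genes. A match is a description of letters only, and no binding was measured. Stretches are printed for 3 of the 5 largest rises, for 1 gene with a match to each of the 3 motifs found, and for the gene called lower, with matches in capitals. They lie at chrX:101268256-101268505 (minus strand), chr7:125603179-125603428 (plus), chr2:129371140-129371389 (minus), chr6:67376189-67376438 (minus), chr1:40515112-40515361 (plus), chr5:30012864-30013113 (plus) and chr3:68690394-68690643 (plus), in the order printed, and Il12a has a further start in the table.
Il2rg: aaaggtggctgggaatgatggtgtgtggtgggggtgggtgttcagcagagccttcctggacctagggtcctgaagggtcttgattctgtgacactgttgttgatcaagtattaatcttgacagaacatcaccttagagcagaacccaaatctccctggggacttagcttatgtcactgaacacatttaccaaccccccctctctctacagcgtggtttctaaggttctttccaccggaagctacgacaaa
Il21r: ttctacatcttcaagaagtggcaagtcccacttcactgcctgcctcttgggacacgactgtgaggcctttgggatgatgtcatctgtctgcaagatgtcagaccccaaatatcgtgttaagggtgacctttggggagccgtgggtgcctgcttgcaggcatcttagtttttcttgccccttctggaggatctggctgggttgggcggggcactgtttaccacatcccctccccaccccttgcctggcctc
Il1b: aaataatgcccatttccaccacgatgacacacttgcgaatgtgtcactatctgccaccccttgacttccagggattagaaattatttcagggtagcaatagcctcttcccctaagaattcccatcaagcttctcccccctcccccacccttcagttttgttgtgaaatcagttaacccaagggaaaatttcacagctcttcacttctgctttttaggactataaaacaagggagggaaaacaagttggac
Il12rb2: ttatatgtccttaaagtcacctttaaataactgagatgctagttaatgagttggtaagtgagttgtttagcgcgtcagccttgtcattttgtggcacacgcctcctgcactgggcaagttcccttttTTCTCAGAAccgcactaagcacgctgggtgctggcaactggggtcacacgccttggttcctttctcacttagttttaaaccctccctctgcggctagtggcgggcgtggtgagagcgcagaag
Il18rap: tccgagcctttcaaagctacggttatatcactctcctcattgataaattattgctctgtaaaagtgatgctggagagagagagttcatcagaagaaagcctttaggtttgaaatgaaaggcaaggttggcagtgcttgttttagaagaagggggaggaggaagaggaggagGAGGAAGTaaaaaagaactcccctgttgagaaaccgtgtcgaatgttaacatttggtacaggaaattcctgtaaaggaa
Il6: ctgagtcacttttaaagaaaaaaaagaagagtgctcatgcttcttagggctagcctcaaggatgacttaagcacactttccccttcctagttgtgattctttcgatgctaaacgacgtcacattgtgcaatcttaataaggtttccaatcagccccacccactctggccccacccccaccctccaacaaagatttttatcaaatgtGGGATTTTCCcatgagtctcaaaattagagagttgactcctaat
Il12a: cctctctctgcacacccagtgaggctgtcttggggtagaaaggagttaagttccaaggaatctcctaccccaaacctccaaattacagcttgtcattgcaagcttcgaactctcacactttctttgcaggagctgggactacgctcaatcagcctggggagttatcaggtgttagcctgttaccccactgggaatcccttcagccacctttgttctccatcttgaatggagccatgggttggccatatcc
The Il12rb2 match lies 123 to 115 bases before the start, that of Il18rap 79 to 72 and that of Il6 44 to 35; the stretches of Il2rg, Il21r, Il1b and Il12a hold none of the 4 patterns.

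The common gamma chain receptors held 3 of the 4 largest rises. Il2rg (chromosome X, 101264378 to 101268255 in GRCm38) encodes the shared chain itself. Its normalized count was 63.7, 65.3, 173, 50.2 and 32.2 in the HRS legs of m862, m863, m864, m865 and m866, and 2.72, 2.93, 7.07, 3.56 and 3.40 in their contralateral PBS legs. The lowest HRS leg, m866, was thus several times the highest PBS leg, and m864 was highest on both sides. The PBS-only legs, at 2.51 to 5.10, overlapped the contralateral ones. The log2 fold change was 3.96 ± 0.35 (SE, n = 5 per group, limma adjusted p = 1.8e-06).

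Il2rb (chromosome 15, 78479256 to 78495271) encodes the beta chain that IL-2 and IL-15 share. It read 23.1, 19.1, 49.4, 14.1 and 13.5 in HRS legs and 0.288, 0.791, 0.831, 0.294 and 1.97 in contralateral PBS legs. The log2 fold change was 4.15 ± 0.34 (limma adjusted p = 1.6e-06), the largest of the 57 on that scale. Its highest PBS value came from m866, the mouse with the lowest HRS value. Il21r (chromosome 7, 125603429 to 125633570), the receptor for the T helper cytokine IL-21, read 15.6, 13.4, 43.2, 12.2 and 4.52 in HRS legs and 0.192 to 0.831 in contralateral PBS legs (log2 fold change 4.02 ± 0.41, limma adjusted p = 4.4e-06).

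Il7r (chromosome 15, 9505788 to 9530176), the IL-7 receptor alpha chain of naive and memory T cells, did not follow the same order of mice. Its HRS legs were at 3.84, 10.7, 9.07, 14.4 and 1.59, highest in m865 rather than m864, and its contralateral PBS legs at 0.128 to 0.600. The change was 3.13 ± 0.44 (limma adjusted p = 5.9e-05), and the groups did not overlap. Il4ra, the IL-4 receptor alpha chain, started from a higher level: 82.5, 89.5, 157, 80.0 and 52.2 in HRS legs and 22.9, 35.5, 33.9, 28.8 and 65.5 in contralateral PBS legs. Here the groups overlapped, since in m866 the PBS leg exceeded the HRS leg, and the change was smaller, at 1.29 ± 0.28 (limma adjusted p = 0.0017).

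The 3 private receptor chains that complete the family did not reach the fold threshold. Il2ra, the alpha chain that marks activated and regulatory T cells, was at 2.23 to 4.39 in HRS legs and 1.32 to 2.08 in contralateral PBS legs, with every HRS leg above every PBS leg and a change of 0.56 ± 0.19 (limma adjusted p = 0.019). Il15ra, which presents IL-15 to neighbouring cells, was at 8.53 to 24.0 against 10.5 to 14.9, and the groups overlapped (0.34 ± 0.22, limma adjusted p = 0.21). Il9r stayed below 0.5 in all 5 HRS legs.

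None of the 3 common gamma chain ligands in the group was called, and with a smaller pseudocount Il7 (1.15) and Il21 (1.51) were. Il7 read 0.661, 0.874, 1.59, 0.926 and 0.654 in HRS legs and 0.320, 0.148, 0.369, 0.353 and 0.592 in contralateral PBS legs, without overlap but with a change of 0.73 ± 0.17 (limma adjusted p = 0.0027). Il21 was read in each HRS leg (0.0534 to 1.73, highest in m864) and was listed at 0 in all 4 PBS-only legs and in 4 of the 5 contralateral ones (0.68 ± 0.28, limma adjusted p = 0.051). In m865 (0.0534) and m866 (0.0623) the HRS values were at or below the worth of 3 reads (0.0534 and 0.0935). A single read is worth 0.0284 to 0.121 in PBS-only legs, so a 0 there is limited by depth. Without the HRS leg of m864 the mean Il21 of the HRS legs was 0.136. Il15 went the other way in 4 of the 5 mice: 5.31, 4.58, 6.14 and 5.09 in the HRS legs of m862 to m865, each below all 5 contralateral PBS legs (10.6, 8.52, 7.44, 8.94 and 7.14), and 12.5 in that of m866, above them all. With all libraries its change was -0.40 ± 0.21 (limma adjusted p = 0.13), and without the HRS leg of m866 it was -0.64 (limma adjusted p = 0.0011), still short of the fold threshold. With all libraries scaled to 1 total it was -0.01, and after quantile normalization it was -0.79 (limma adjusted p = 0.014). The muscle fibre sum had the same split, with m866 high and the other 4 HRS legs low; its part in the Il15 values was not tested. The genes for IL-2 and IL-4 fell below the threshold of the group, with means under 0.1, and those for IL-9 and IL-13 were not analysed here.

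**Figure D3:**
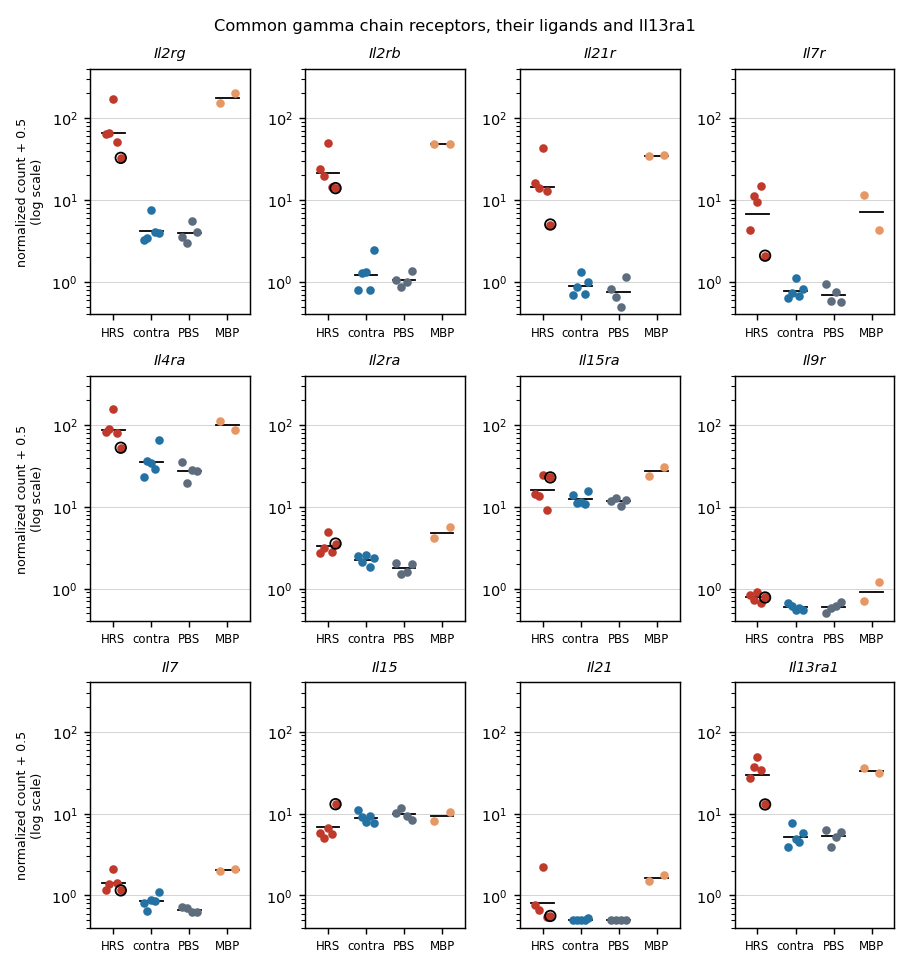
Normalized count + 0.5 on a log axis in each library for 8 common gamma chain receptors, 3 ligands and Il13ra1; columns are HRS legs (red), contralateral PBS legs (blue), PBS-only legs (grey) and HRS-MBP (orange), the line is the mean of the log values and the ring marks the HRS leg of m866. Il2rg, Il2rb, Il21r and Il7r separate the HRS legs from all PBS legs, while Il15 and Il15ra overlap.

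In the IL-1 family 5 of 5 ligands, 4 of 7 receptors and 3 of 3 antagonists or decoys were called higher. Il1b (chromosome 2, 129364570 to 129371139), the inflammatory ligand made chiefly by myeloid cells, read 6.85, 13.9, 31.1, 12.6 and 2.65 in HRS legs and 0.0641, 0.115, 0.508, 0.118 and 0.323 in contralateral PBS legs. PBS-only legs were at 0.130 to 0.728, so that the lowest HRS leg (m866) stayed above all 9 PBS legs. The log2 fold change was 3.91 ± 0.44 (limma adjusted p = 9e-06). Il1rn (chromosome 2, 24336853 to 24351494) encodes the antagonist that occupies the IL-1 receptor without signalling. It rose by a like amount, from 0.128, 0.165, 1.62, 0.323 and 0.296 in contralateral PBS legs to 9.50, 20.9, 23.3, 24.5 and 3.74 in HRS legs (3.97 ± 0.45, limma adjusted p = 9.9e-06).

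Divided by exon length (5.535 kb for Il1rn and 1.907 kb for Il1b), Il1rn was below Il1b in each of the 5 HRS legs. Undivided, Il1rn was above Il1b in m862 (9.50 against 6.85), m863 (20.9 against 13.9), m865 (24.5 against 12.6) and m866 (3.74 against 2.65). Only in m864 (23.3 against 31.1) was the undivided Il1rn count lower, so the order depends on the lengths used. The ratio of Il1rn to Il1b per kilobase was 0.478, 0.518, 0.258, 0.671 and 0.486 in m862 to m866, lowest in m864, which had the highest Il1b. Per kilobase, IL-18 showed the opposite arrangement. Il18bp, whose product binds and neutralises IL-18, exceeded Il18 per kilobase in each HRS leg, by 2.31, 1.45, 2.01, 2.27 and 3.03 times in the same order of mice. Undivided, Il18bp was above Il18 in each HRS leg as well. Transcript ratios do not give protein ratios, and reads of the antisense gene Il1bos, listed at 0.232 or less, could not be set apart from those of Il1b because the strand setting of the counting is not given in the sources used here.

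Il18 itself read 3.35, 3.98, 8.47, 2.65 and 1.31 in HRS legs and 0.559 to 1.21 in contralateral PBS legs (1.56 ± 0.31, limma adjusted p = 0.0011, and 0.97 with a pseudocount of 2, no longer called). Il18bp was at 22.7, 16.9, 49.9, 17.7 and 11.7 against 1.06 to 3.09, a change of 3.16 ± 0.35 (limma adjusted p = 9e-06). Its receptor chains rose more than the ligand: Il18rap, the accessory chain, read 6.41, 6.37, 18.8, 5.73 and 3.55 in HRS legs and 0.0882 to 0.508 in contralateral PBS legs (3.29 ± 0.32, limma adjusted p = 2.7e-06). Il18r1, the ligand-binding chain found on T and NK cells, was at 1.74 to 12.5 against 0.0641 to 0.754 (2.56 ± 0.37, limma adjusted p = 7.4e-05). For all 4 IL-18 genes the HRS leg of m864 was highest and that of m866 lowest, and no HRS leg overlapped a contralateral one.

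Il33, an alarmin of stromal cells, was at 11.3, 22.0, 26.5, 16.1 and 7.82 in HRS legs and 2.66 to 7.85 in contralateral PBS legs, so that the m866 HRS leg fell just below the highest PBS leg (1.51 ± 0.33, limma adjusted p = 0.0018). Il1a was at 0.207 to 2.09 against 0 to 0.0686, and Il1f9, which encodes IL-36 gamma, at 0.0623 to 1.82 against 0 to 0.118 (1.22 ± 0.26 and 1.39 ± 0.29, both called). With a pseudocount of 2 neither was called, and without the HRS leg of m864 Il1a was not. The IL-33 receptor Il1rl1 was not called, at 1.84 to 6.23 against 0.961 to 2.61 (0.90 ± 0.29, limma adjusted p = 0.016).

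Il1r1, the signalling IL-1 receptor, read 25.5, 37.2, 52.6, 35.9 and 13.9 in HRS legs and 6.33 to 10.6 in contralateral PBS legs (1.85 ± 0.27, limma adjusted p = 8e-05). The decoy receptor Il1r2 was much lower, at 0.748 to 2.18 against 0.242 to 0.659 (1.11 ± 0.24, limma adjusted p = 0.0016), a call lost without the HRS leg of m863 (0.98), with a pseudocount of 2 (0.52) and after quantile normalization (0.81). Il1rap, the accessory chain of IL-1, IL-33 and IL-36 receptors, read 2.93 to 6.91 against 1.39 to 3.69 and was not called (0.84 ± 0.23, limma adjusted p = 0.0064). Il1r2, Il1r1, Il1rl2, Il1rl1, Il18r1 and Il18rap lie side by side in that order on chromosome 1, from 40074079 to 40551705. Of these 6 neighbours 5 were called higher, Il1rl1 being the exception, with log2 fold changes of 1.11, 1.85, 1.31, 0.90, 2.56 and 3.29 along the cluster. After quantile normalization Il1r2 and Il1rl2 were no longer called.

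**Figure D4:**
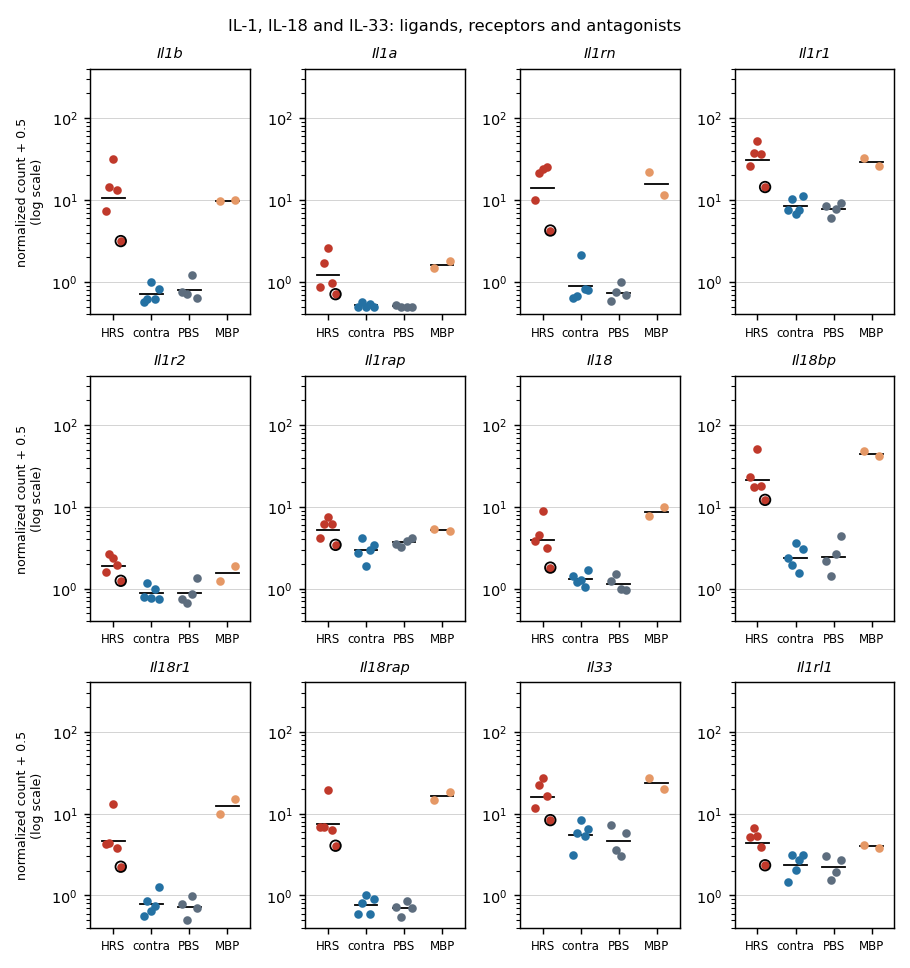
Normalized count + 0.5 on a log axis in each library for ligands, receptors and antagonists of the IL-1, IL-18 and IL-33 systems, with columns, colours, lines and the ring for the HRS leg of m866 as in the plot of common gamma chain genes. Il1b, Il1rn, Il18bp and Il18rap separate the HRS legs from all PBS legs; Il1rap and Il1rl1 overlap.

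In the IL-12 family 3 of 4 receptors and 1 of 3 ligands were called higher, and 1 ligand was called lower. Il12rb1, the chain shared by the IL-12 and IL-23 receptors, read 6.44, 3.30, 22.1, 2.74 and 3.12 in HRS legs and 0 to 0.231 in contralateral PBS legs (3.28 ± 0.39, limma adjusted p = 1.6e-05). Il12rb2, the chain particular to the IL-12 receptor and typical of type 1 T helper cells, was at 4.02 in m864 and at 0.565 to 0.655 in the other 4 HRS legs, against 0.364 or less in contralateral PBS legs (1.30 ± 0.36, limma adjusted p = 0.0076). That call was lost without m864, at 0.89, and with a pseudocount of 2, at 0.55. Il23r, which lies next to Il12rb2 on chromosome 6, stayed below 1 in all libraries and was not called (0.54 ± 0.20).

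Il12a (chromosome 3, 68690644 to 68698547), the p35 chain of IL-12, was the only 1 of the 57 genes called lower. It read 0.588, 1.05, 1.0, 1.14 and 2.09 in HRS legs and 3.62, 3.10, 1.62, 3.12 and 2.83 in contralateral PBS legs, lower in the HRS leg of all 5 mice, although the groups overlapped through m866 and the contralateral leg of m864. The change was -1.03 ± 0.23 (limma adjusted p = 0.0020), just past the fold threshold, and it dropped under that threshold with a pseudocount of 2 (-0.62), with all libraries scaled to 1 total (-0.72) and without 1 of 4 libraries, the HRS leg of m862 (-0.89) or the contralateral leg of m862 (-0.95), m863 or m865 (both -0.99). The HRS leg of m866 had the highest Il12a and the highest muscle fibre sum of the HRS legs, and the part of fibre content was not tested. Il12b, the p40 chain that IL-12 shares with IL-23, was read at 0.156 to 1.32 in HRS legs and at 0.108 or less in contralateral PBS legs, without overlap (0.94 ± 0.20, limma adjusted p = 0.0017). It missed the fold threshold, and passed it with a smaller pseudocount (1.97) and without the HRS leg of m866 (1.10).

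Il27, the p28 chain of IL-27 from antigen-presenting cells, read 1.74, 1.33, 5.25, 0.979 and 1.10 in HRS legs and 0 to 0.132 in contralateral PBS legs (2.03 ± 0.28, limma adjusted p = 5.3e-05). Its partner chain Ebi3, whose symbol lies outside the rule, rose as well (3.09 ± 0.26). The receptor Il27ra was at 3.59, 4.09, 8.90, 3.01 and 2.65 against 0.462 to 1.05 (1.97 ± 0.26, limma adjusted p = 3.2e-05). Ligand and receptor of IL-27 were both called, and neither overlapped, although Il27 lost its call with a pseudocount of 2 (0.91).

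The IL-10 family was called higher in all 4 of its genes. Il10, an anti-inflammatory ligand, read 1.96, 2.36, 1.98, 1.10 and 0.904 in HRS legs and 0 to 0.288 in contralateral PBS legs (1.63 ± 0.22, limma adjusted p = 4.2e-05), and lost its call with a pseudocount of 2 (0.73). Il10ra (chromosome 9, 45253837 to 45269149), its leukocyte receptor chain, read 53.9, 55.1, 117, 51.2 and 23.2 against 2.18 to 4.99 (3.58 ± 0.32, limma adjusted p = 1.9e-06). Il10rb, the second chain, which many tissues express, started higher and rose less, from 7.40 to 13.2 in contralateral PBS legs to 15.6 to 53.8 in HRS legs (1.78 ± 0.26, limma adjusted p = 7.8e-05). Il20rb rose least and with overlap (1.05 ± 0.25, limma adjusted p = 0.0031), and its call was lost without any 1 of 4 libraries, with a pseudocount of 2 and after quantile normalization. The ligands IL-19, IL-20, IL-22 and IL-24 were not analysed here.

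In the gp130 family 0 of 7 genes passed the fold threshold, and 3 (Il6, Il6ra and Il11ra1) did with libraries scaled to 1 total. Il6st (chromosome 13, 112464070 to 112510086), the shared gp130 chain, read 210, 216, 249, 217 and 234 in HRS legs, 227, 219, 238, 230 and 180 in contralateral PBS legs and 197 to 247 in PBS-only legs. Its change was 0.05 ± 0.11 (limma adjusted p = 0.73), and the sign turned without the contralateral leg of m866 (-0.02). It stood at 0.46 (limma adjusted p = 0.0044) with libraries scaled to 1 total and 0.33 after quantile normalization, settings that moved the median of all genes from 0.07 to 0.37 and -0.13. Per kilobase of exon Il6st was first of the 57 genes in contralateral PBS legs, at 19.7, and second in HRS legs, at 20.3, behind Il2rg at 32.2, which had been at 1.65 in contralateral PBS legs.

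Il6 itself was read at 0.441, 0.453, 0.840, 0.392 and 0.405 in HRS legs and at 0 to 0.132 in contralateral PBS legs, without overlap (0.89 ± 0.17, limma adjusted p = 6.1e-04), and missed the fold threshold on a scale that compresses such low values. It passed with a smaller pseudocount (1.97) and with libraries scaled to 1 total (1.04), as did Il6ra (1.28) and Il11ra1 (1.12) with the latter. Il6ra was at 19.0 to 41.7 against 11.6 to 19.7 (0.88 ± 0.20, limma adjusted p = 0.0023), and without both legs of m866 it passed (1.09). Il11ra1, the IL-11 receptor, read 68.9, 90.1, 86.6, 69.3 and 47.7 in HRS legs and 40.4, 47.2, 40.6, 43.3 and 45.3 in contralateral PBS legs, without overlap (0.70 ± 0.15, limma adjusted p = 0.0014). Il11 and Il31ra stayed below 0.9 in these 10 libraries. Il11ra2 shares near-identical sequence with other copies of the gene, so that its reads are uncertain.

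**Figure D5:**
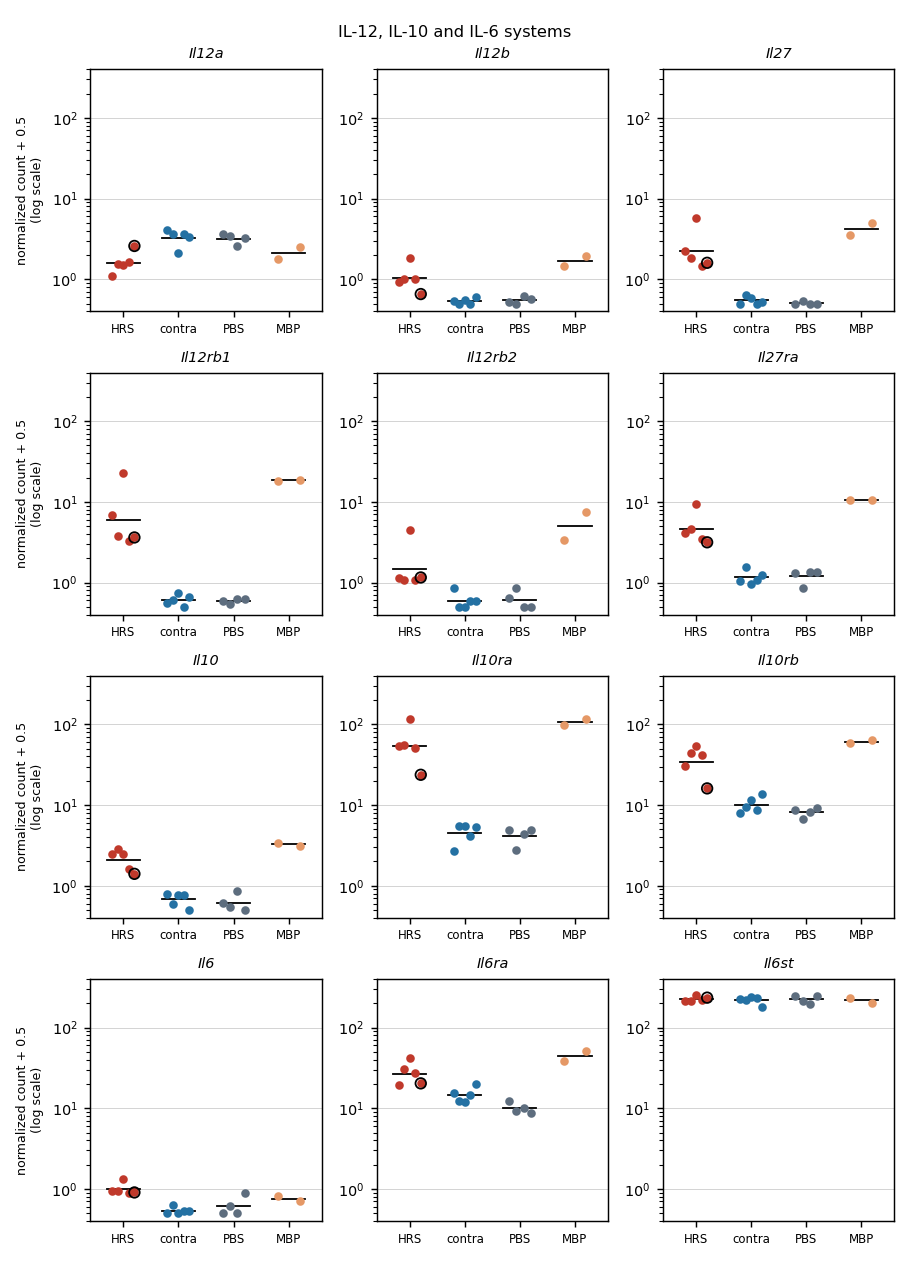
Normalized count + 0.5 on a log axis in each library for genes of the IL-12, IL-27, IL-10 and IL-6 systems, with columns, colours, lines and the ring for the HRS leg of m866 as in the plot of common gamma chain genes. Il10ra and Il12rb1 separate all HRS legs from all PBS legs, Il12a lies lower in HRS legs and Il6st is level across the groups.

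In the IL-17 family only Il17ra, the widely expressed shared chain, was called. It read 25.0, 27.9, 53.3, 29.1 and 11.6 in HRS legs and 4.68, 7.94, 8.04, 8.50 and 11.6 in contralateral PBS legs (1.68 ± 0.30, limma adjusted p = 4.8e-04), with the legs of m866 on a par. Its partner Il17rc was at 5.95 to 12.5 against 3.29 to 9.86 (0.79 ± 0.25, limma adjusted p = 0.015), Il17rd at 5.11 to 7.74 against 3.85 to 4.95 (0.38 ± 0.15), and Il17re had a change of -0.62 ± 0.28. The genes for IL-17A and IL-17F were not analysed here.

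Of the remaining genes, Il13ra1, which with the IL-4 receptor alpha chain binds IL-4 and IL-13, read 26.8, 36.9, 48.2, 33.1 and 12.4 in HRS legs and 3.40 to 7.25 in contralateral PBS legs (2.49 ± 0.29, limma adjusted p = 1.1e-05). Il3ra, the IL-3 receptor alpha chain, read 16.8, 22.5, 30.3, 18.0 and 7.95 against 3.41 to 5.60 (1.95 ± 0.27, limma adjusted p = 4.5e-05). Il16, a chemoattractant for CD4+ cells, read 14.0, 17.5, 26.4, 16.8 and 8.50 against 4.78 to 7.58 (1.24 ± 0.25), and lost its call after quantile normalization (0.92). Il4i1 read 3.49, 3.40, 7.38, 3.46 and 2.12 against 0.338 to 2.83 (1.44 ± 0.37), and lost its call with a pseudocount of 2 (0.87). Il34, a second ligand of the macrophage receptor Csf1r, was at 5.80 to 7.63 against 5.22 to 9.26 (0.03 ± 0.16, limma adjusted p = 0.89), and Il5ra, on eosinophils, at 0.304 or less in HRS legs.

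Just inside the threshold of 0.1 on the mean lay Il1rapl1 (0.101), Il17b and Il11 (both 0.104). Il1rapl1 owes its mean to 1 value of 1.33 in the shallowest library, the right leg of m868, and Il17b to 1 value of 0.996 in the contralateral leg of m866. Just outside lay Il22ra2 (0.0750), with Il5, Il2, Il13ra2, Il1bos, Il4, Il1f5, Il23a, Il20ra, Il17c and Il25 below it. These 11 genes entered no comparison.

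Among the HRS legs, m864 gave the highest value in 23 of the 30 genes called higher and m866 the lowest in 27. Over all genes tested, m864 was highest in 29.7% and m866 lowest in 40.9%. The same mice had the extreme Ptprc values, 279 and 58.0. Without both legs of m866, 35 genes were called higher and 1 lower, beside 17.8% and 8.55% of all genes tested.

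Against the PBS-only mice, 33 of the 57 genes were called higher in HRS legs and 0 lower, beside 15.6% and 4.73% of all genes tested (20.3% in either direction). In 36 every HRS leg lay above every PBS-only leg, as in 23.4% of all genes tested, and in 0 below, as in 5.03%. Both comparisons use the same HRS legs. Il6ra, for example, was at 8.28 to 11.8 in PBS-only legs, and here it was called (1.42 ± 0.21, limma adjusted p = 9.7e-05), as were Il7 (1.07 ± 0.18) and Il17rc (1.29 ± 0.26). Il12a had a change of -0.99 ± 0.24 (limma adjusted p = 0.0036) and was not.

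Whether a PBS leg opposite an HRS leg differs from a leg of a mouse given PBS alone was asked by comparing contralateral PBS with PBS-only legs. In this comparison limma called 0 of the 57 genes, beside 0.00489% of all genes tested (1 of 20447). Il6ra (0.55 ± 0.21) and Il34 (0.41 ± 0.17) were the 2 genes with an unadjusted p below 0.05, as were 1210 of all genes tested, and their adjusted p-values were 0.76 and 0.77. Il34 was at 5.22 to 9.26 in contralateral PBS legs and 3.88 to 5.38 in PBS-only legs, and the groups overlapped.

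The 2 HRS-MBP libraries had 34 of the 57 genes called higher than PBS-only legs and 0 lower, beside 17.9% and 8.28% of all genes tested (26.2% in either direction). In 42 both HRS-MBP libraries lay above the 4 PBS-only legs and in 3 below, as in 36.9% and 26.8% of all genes tested. Il2rg was at 154 and 201, Il10ra at 98.8 and 117, Il2rb at 48.4 and 47.3, Il21r at 33.6 and 34.6, and Il12rb1 at 17.7 and 18.3. In these 5 genes the HRS legs other than that of m864 lay below both HRS-MBP values. Il7r (11.1 and 3.85) and Il1rn (21.2 and 11.1) differed between the 2 libraries. Il1f9 (0.387 and 0.178) and Il1r2 (0.754 and 1.38), called in HRS legs, were not called here.

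Set directly against the HRS legs, limma called 0 of the 57 genes in HRS-MBP libraries, beside 0.543% of all genes tested (0.489% higher and 0.0538% lower). Both HRS-MBP libraries lay above all 5 HRS legs for 4 genes (Il10, Il10rb, Il27ra and Il34) and below them for 3 (Il11, Il17rd and Il6), as in 7.4% and 8.35% of all genes tested. In this comparison 21 of the 57 had an unadjusted p below 0.05, Il1f9 lower and the others higher, as had 2730 of the 20447 genes tested. The largest differences were those of Il12rb2 (1.77 ± 0.48, limma adjusted p = 0.12), Il12rb1 (1.65 ± 0.52, adjusted p = 0.18), Il2rg (1.43 ± 0.46, adjusted p = 0.19) and Il18r1 (1.41 ± 0.49, adjusted p = 0.22). The result turned on the HRS leg of m864. Without it, 12 genes were called higher in HRS-MBP libraries (Il10ra, Il12rb1, Il12rb2, Il18, Il18r1, Il18rap, Il21, Il21r, Il27, Il27ra, Il2rb and Il2rg), beside 2.81% of all genes tested in that setting, whereas without that of m866 only Il1f9 was called, as lower, beside 0.401%. T cell markers summed to 84.0 and 120 in the HRS-MBP libraries, 106 in the HRS leg of m864 and 14.1 to 43.6 in the other HRS legs. The antigen preparation and the mice differ together between these groups, as may the dose, and cannot be told apart.

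Signalling partners outside the rule were taken from a fixed list of 46 genes, of which 24 were called higher and 3 lower between HRS and contralateral PBS legs, beside 14% and 5.03% of all genes tested. Of the Jak kinases 1 of 4 was called: Jak3, which binds the common gamma chain, at 1.30 ± 0.24 (limma adjusted p = 6.5e-04), while Jak1 stood at -0.01 ± 0.11. Of the STAT factors, Stat4 (2.22 ± 0.25), which acts below the IL-12 receptor, and Stat2 (1.87 ± 0.24) were called higher and Stat5b (-1.12 ± 0.25) lower. Of 8 feedback inhibitors of the SOCS family, Socs1 (2.76 ± 0.40) and Socs3 (1.74 ± 0.30) were higher and Cish (-1.45 ± 0.54) lower. Cish was at 4.24 to 28.3 in HRS legs, 7.59 to 53.1 in contralateral PBS legs and 9.86 to 29.7 in PBS-only legs, and against the last it was not called (-0.57 ± 0.57, limma adjusted p = 0.42).

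The 4 listed genes that take part in the processing or release of IL-1 beta and IL-18 were all called higher: Nlrp3 (3.51 ± 0.40), Casp1 (2.97 ± 0.34), Pycard (2.93 ± 0.28) and Gsdmd (2.70 ± 0.28). In IL-1 receptor signalling 4 of 7 were, with Myd88 at 1.93 ± 0.18 and the inhibitory kinase gene Irak3 at 2.14 ± 0.23, and in IL-17 signalling 2 of 3. Of 13 receptor subunits and ligands with other symbols, 8 were higher, among them Csf2rb (2.98 ± 0.36), the common beta chain that pairs with the Il3ra product, and Cntfr (-1.24 ± 0.23), a gp130 partner of muscle, was lower.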

How the data were processed

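Polyadenylated RNA of mouse muscle was sequenced from 16 libraries on 3 Illumina platforms, with the platform of each library not given in the sources used here. The deposited table gives a normalized count per gene, a signal that the authors made from aligned reads (the submitters' processing notes name STAR 2.7.8a, limma and the builds mm39 and GRCm39). The counter, its strand setting and the normalization are not given in the sources used here. The coordinates in the table equal GRCm38 (GENCODE M21) for 56 of the 57 genes, with the same start and a stop larger by 1, and GENCODE ends are printed. Low values were whole multiples of a step, within 0.02 of a step, for 69.7 to 73.7% of them, too few to recover reads, so no count model was used, and 3 reads would be worth 0.0324 to 0.364 across libraries.

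Values were analysed as log2(normalized count + 0.5) with limma 3.58.1 in R 4.3.3 (4 group means, trended eBayes, Benjamini-Hochberg over 20447 genes with a mean of at least 0.1), after the script was tested on simulated data. Calls needed an adjusted p below 0.05 and an absolute log2 fold change above 1. Summaries used Python 3.11.15, numpy 2.4.6 and pandas 2.3.3. Levels per kilobase used GENCODE exon unions. Groups came from the sample labels. The 2 legs of a mouse are paired by the animal, as the titles give it, and the correlation of their deviations from the group means was 0.0963, 0.156, 0.0810, -0.0212 and -0.343 in m862 to m866 (different mice, mean -0.0048). Alternatives covered the pseudocount, filter, scaling, block, call rule and left-out libraries, and those leaving out both legs of a mouse were added after seeing the data. The genes and lists were chosen with earlier results of these data known. Named, with values per library or, for some partners and control groups, ranges, were the gene of largest called change in each family and role, the 10 largest rises, each gene called lower or called between the PBS groups or between HRS-MBP and HRS legs, Il7r, the 3 highest genes of each group, the partners of these and the genes next to the threshold. Others were named in a clause. The values of 1 gene of the partner list are not reported here.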

Additional observations from a re-analysis of the deposited data

Results flagged for a closer look

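Within groups of 4 or 5 libraries, 117 sets of values from 39 genes were examined for 1 library far from the others on the log2(normalized count + 0.5) scale, and 12 were found. The cut-off gives about 1 in 20 by chance for independent, normally spread values. These sets share libraries and some hold tied values of 0, so that rate does not apply to them and no excess was shown. Among HRS legs, m864 was far above the others for Il12rb2 (4.02), Il21 (1.73) and Il6 (0.840), and m866 for Il15 (12.5). Among contralateral PBS legs, m864 was high for Il1rn (1.62) and Il2rg (7.07), m863 for Il6 (0.132) and m866 for Il21 (0.0269), while m866 was low for Il6st (180). Among PBS-only legs, the left leg of m867 was low for Il16 (3.29) and Il27ra (0.364) and was the only one with any Il27 (0.0404). The Il27 and Il21 values in PBS legs are below the worth of 3 reads in those libraries (0.121 and 0.0808).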

How the results depend on the processing

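The number of genes called between HRS and contralateral PBS legs ran from 21 (pseudocount 2, where 9.46% of all genes were called higher and 3.39% lower) to 43 (adjusted p alone, where 31.3% and 21.3% were), and from 29 to 33 with 1 library left out. With the mouse as a replicate block it was 31, as without it. A random term for the mouse changed no count in the 5 comparisons. Against PBS-only mice it ran from 25 to 43 under the same settings (10.5% and 3.3%, then 33.9% and 18.8%). It stayed at 0 between the PBS groups in each setting run. For HRS-MBP against PBS-only legs it ran from 29 to 41 likewise (12.9% and 5.99%, then 29.4% and 19.4%). For HRS-MBP against HRS legs the count was 0 in each setting other than leaving out 1 HRS leg, where it ranged from 0 to 12, with 12 without m864 and 1 without m866. Where 1 of the 2 HRS-MBP libraries was left out, the other was assumed to vary like the other groups. The direction of Il6st turned without both legs of m866 (-0.037), and with 1 library left out it ranged from -0.022 to 0.079. The cause was not tested. Of all values recomputed for the named genes and counts, 1043 kept direction and call, 32 gained a call, 17 lost one, 2 counts moved and 2 reversed. Genes with values under the worth of 3 reads in the shallowest library (0.364) are limited by depth.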
